A study of Mus musculus with 4 samples.

Results

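The nuclear-encoded subunits of the respiratory chain were examined in nuclei of thymic and epigonadal fat from mice. They were taken by symbol: genes beginning Ndufa, Ndufb, Ndufc, Ndufs, Ndufv, Uqcr or Atp5, genes beginning Cox4 to Cox8 followed by a letter, and Sdha, Sdhb, Sdhc and Sdhd. Assembly factors (Ndufaf), pseudogenes, and the thermogenic isoforms Cox7a1 and Cox8b were left out. This gave 83 of the 32285 genes in the feature list: 38 of complex I, 4 of complex II, 8 of complex III, 16 of complex IV and 17 of complex V. Ndufa4 is counted with complex I by its symbol, although its protein is known as a subunit of complex IV.

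The respiratory chain passes electrons from NADH and succinate to oxygen through complexes I to IV in the inner mitochondrial membrane. The proton gradient made on the way drives ATP synthesis by complex V, the ATP synthase. Complexes I, III, IV and V mix subunits encoded in the nucleus with a few encoded by the mitochondrial genome, whereas every subunit of complex II is nuclear-encoded. White adipocytes keep few mitochondria compared with brown ones, which burn fuel for heat.

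RNA of single nuclei was counted with the 10x droplet assay in 1 thymic and 1 epigonadal library. The thymic library came from 6 pooled thymi of naïve wild-type C57/BL6 males on standard chow, aged 4 months. The epigonadal library came from white fat of naïve wild-type males aged 4 months, and the sources used here do not give its strain or number of animals. A multiome library (RNA and open chromatin of each nucleus) was made from 16 thymi, pooled, of naïve wild-type C57/BL6 females on standard chow, aged 6 months, and only its chromatin fragments were used, its RNA matrix being not analysed here. Tissue was digested with collagenase, the buoyant layer was kept to enrich adipocytes, and nuclei were prepared from it. With 1 library per group no difference could be tested between groups and no p-value is given. Intervals are 95% intervals that cover counting error only.

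The authors labelled 365 of 22600 thymic and 1564 of 5043 epigonadal barcodes with Ad Ia or Ad Ib, or else with Ad IIa, Ad IIb or Ad IIc. In that order the labels held 35, 49, 231, 16 and 34 thymic nuclei and 106, 152, 590, 58 and 658 epigonadal nuclei. Ad Ia and Ad Ib are called Ad I when summed. Median UMIs per nucleus were 500.5 in thymic and 744.5 in epigonadal Ad I, 1696 and 1916 in Ad IIa, and 1523 and 714 in Ad IIc. Levels are UMIs of a gene, or summed over genes, per 1000000 nuclear-encoded UMIs of the same barcodes (CPM). They are shares of the RNA counted and not amounts per nucleus. Of the barcode sequences, 147 occurred in both libraries and 0 of these were labelled in both.

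The adipocyte label was checked against 10 marker genes. Labelled epigonadal nuclei held UMIs of all 10, with 1990 of the secreted adipokine Adipoq. Labelled thymic nuclei held 9 of 10, Lep being at 0, but Adipoq had 20 UMIs and the lipid droplet coat gene Plin1 had 50 over all 365 nuclei. Of these Plin1 UMIs 46 lay in thymic Ad I, at 881 CPM against 618 CPM in epigonadal Ad I. Of the list, Plin1, Pparg and Lpl were higher in thymic than epigonadal Ad I and all others lower, such as Cidec at 613 against 2562 CPM. The 10 markers summed to 10241 CPM in thymic and 15797 CPM in epigonadal Ad I. Over all labelled thymic nuclei Pparg had 1165 UMIs. It was at 2178 CPM there and 1434 CPM in labelled epigonadal nuclei. In thymic Ad IIa, 4 UMIs were Adipoq and 4 were Plin1, whereas the lipid carrier Fabp4 gave 3557, Pparg 952 and Lpl 368 of the 4955 marker UMIs. Pparg was at 2371 CPM in thymic and 2012 CPM in epigonadal Ad IIa, and Lpl at 917 and 1425 CPM. All 8 endothelial markers were found in thymic Ad IIa, at a summed 8591 CPM, and in epigonadal Ad IIa at 6309 CPM. Their sum was 1168 CPM in thymic and 1050 CPM in epigonadal Ad I, and 7666 CPM in thymic against 387 CPM in epigonadal Ad IIc. A shared label may therefore not hold 1 cell type in both libraries, and the part of cell makeup in the results below was not tested.

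Labelled thymic nuclei carried fewer UMIs of the subunit genes than labelled epigonadal nuclei, across all complexes. The 83 genes summed to 5555 CPM (5357 to 5759) in thymic and 16948 CPM (16774 to 17122) in epigonadal labelled nuclei, from 2972 and 36571 UMIs. The log2 ratio was −1.61 (−1.66 to −1.56), or 3.05-fold lower in the thymus. By complex it was −1.41 for complex I, −1.17 for complex II, −1.82 for complex III, −1.69 for complex IV and −1.79 for complex V. Of 77 members with at least 10 UMIs over both sides, 65 were at least 2-fold lower in the thymic library, where 20.2% of the 11306 genes tested were. With cytosolic ribosomal protein UMIs as the total, an alternative that moves the median of all genes to 0.94, the sum was at −0.70 and 17 members were at least 2-fold lower. The share of all genes called at other totals and scalings was not computed. Counts of members there, here and below, therefore do not set the members apart from all genes. At the nuclear-encoded total none was at least 2-fold higher, where 8.12% of all genes were. The median member stood at −1.60 and the median of all genes at 0.02. The pooled ratios, here and for single genes below, mix labels held in unlike shares. Ad IIc made up 34 of 365 thymic and 658 of 1564 epigonadal nuclei, and gave 519 and 20169 of the member UMIs. The part of this makeup in the pooled ratios was not tested.

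The size of the gap went with the label. In Ad I the sums were 5073 CPM (4480 to 5722) in thymic and 6360 CPM (6059 to 6671) in epigonadal nuclei, a log2 ratio of −0.32 (−0.52 to −0.14). There 17 of 71 members were at least 2-fold lower and 6 higher, which is 23.9% and 8.45% of them, against 17% and 15.2% of all genes. With the scale factors of edgeR's TMM method, which centre on genes of moderate ratio, the Ad I ratio was −0.66 and 29 members were at least 2-fold lower, while the median of all genes moved to −0.26. With cytosolic ribosomal protein UMIs as the total the direction in Ad I was turned, at 0.21 (0.01 to 0.39) with 13 members higher and 9 lower. Among barcodes of at least 1000 UMIs the Ad I ratio was −0.27 (−0.61 to 0.05) with 7 lower. Of 84 thymic Ad I nuclei, 42 lay under 500 UMIs, at 6687 CPM, where no epigonadal Ad I nucleus did. The median Ad I member was at −0.47, or −0.36 when the 4 members at 0 on one side were set to the 3 UMIs that a count of 0 allows, and the median of all genes at 0.08. In Ad IIa the sums were 5164 CPM (4944 to 5391) and 11163 CPM (10978 to 11351), a log2 ratio of −1.11 (−1.18 to −1.05). There 47 of 77 members were at least 2-fold lower and 0 higher, against 16.2% and 5.44% of all genes, and 5 were lower with ribosomal UMIs as the total. In Ad IIc the sums were 9565 CPM (8759 to 10424) and 39074 CPM (38537 to 39617), a log2 ratio of −2.03 (−2.16 to −1.90). Of 77 members, 66 were at least 2-fold lower and 0 higher there, against 32% and 32.7% of all genes. TMM factors moved the Ad IIc ratio by −0.99, with 76 members lower, and ribosomal UMIs as the total moved it by 0.74, with 45 lower.

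The labels Ad Ia, Ad Ib and Ad IIb were also summed singly. Thymic Ad Ia held 4772 CPM (3993 to 5659) and epigonadal Ad Ia 4937 CPM (4581 to 5315), with overlapping intervals. Ad Ib held 5410 CPM (4530 to 6412) in the thymic and 8058 CPM (7559 to 8582) in the epigonadal library. Ad IIb held 4256 CPM (3514 to 5109) and 6494 CPM (6080 to 6929). Across the 5 labels the thymic sums thus spanned 4256 to 9565 CPM, and the epigonadal sums 4937 to 39074 CPM.

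**Figure D1:**
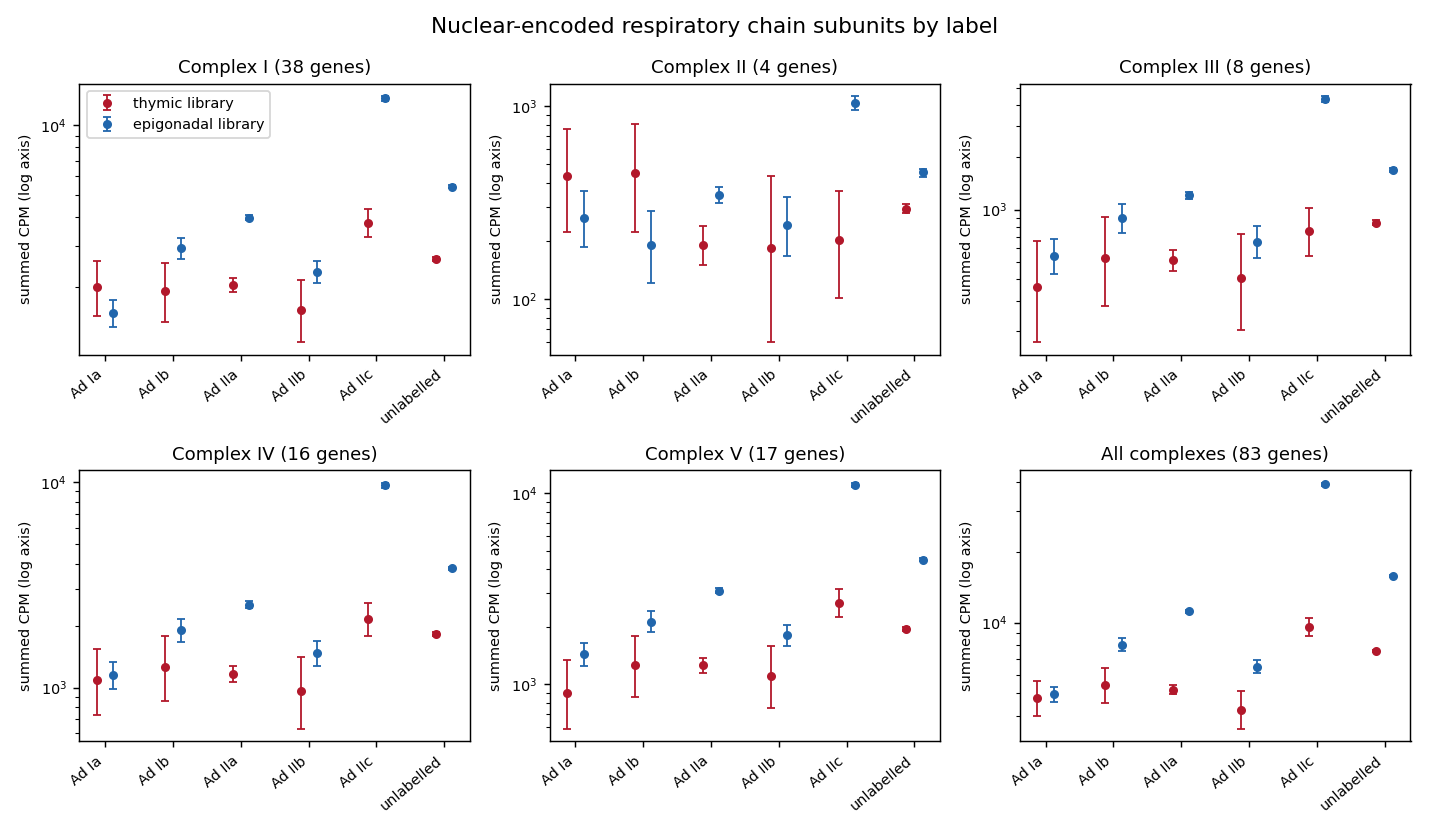
Summed CPM (log axis) of the subunit genes of each complex, and of all 83, by label and in unlabelled barcodes; points are the thymic and epigonadal libraries and bars are 95% counting intervals. The libraries lie close together in Ad Ia (4772 and 4937 CPM over all complexes) and farthest apart in Ad IIc (9565 and 39074 CPM).

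The complexes kept similar shares of the subunit UMIs. In labelled thymic nuclei complex I gave 39.3% of them, complex II 3.9%, complex III 9.45%, complex IV 22.6% and complex V 24.8%. The labelled epigonadal shares were 34.3%, 2.89%, 10.9%, 23.8% and 28%. Thymic Ad I stood apart in complex II, which gave 8.68% of its subunit UMIs, from 23 UMIs, against 3.64% in epigonadal Ad I.

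Complex I, the NADH dehydrogenase through which most electrons enter, held both the highest and the lowest ratio among its members. Ndufs4, an accessory subunit of the arm that takes up electrons (ENSMUSG00000021764, chr13:114287795-114388094 on GRCm38.p6), was at 145, 407, 174, 111 and 147 CPM in the thymic labels, in the order above. In the epigonadal library it was at 104, 141, 104, 128 and 138 CPM in the same labels. These rest on 4, 10, 70, 3 and 8 thymic and 15, 17, 129, 18 and 71 epigonadal UMIs, and the counting intervals of the libraries were apart in Ad IIa and overlapped in the other labels. Over all labelled nuclei its log2 ratio was 0.62 (0.26 to 0.96), from 95 thymic and 250 epigonadal UMIs. It was the only member of 77 with a ratio above 0 in that comparison, and also the only one in Ad IIa, at 0.75 (0.30 to 1.17). With cytosolic ribosomal protein UMIs as the total, 8 and 19 members were above 0, whereas Ndufs4 was still the only one under the other scalings. Members above 0 were not counted in the barcode subsets.

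Ndufv3, an accessory subunit of the NADH-binding part of complex I (ENSMUSG00000024038, chr17:31520115-31531326), lay at the other end. Its thymic levels were 0, 0, 27.4, 0 and 73.7 CPM in the same order of labels, against 76.6, 108, 137, 56.8 and 579 CPM in the epigonadal library. The thymic value was the lower one in every label, but 0 UMIs in Ad Ia, Ad Ib and Ad IIb allow up to 133, 150 and 137 CPM. A lower level is therefore not shown in those labels. The UMIs were 15 and 500, and the log2 ratio was −3.00 (−3.89 to −2.31) over all labelled nuclei. Ndufc2, a membrane-arm accessory subunit, was nearest to Ndufs4 at the upper end, with 61 and 329 UMIs and a log2 ratio of −0.41 (−0.84 to −0.02). In Ad IIa Ndufc2 was at 105 CPM in thymic and 112 CPM in epigonadal nuclei, a log2 ratio of −0.08 (−0.63 to 0.42).

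The iron-sulfur subunits Ndufs3 and Ndufs1 belong to the conserved core of complex I. Ndufs3 was at 153 CPM in thymic Ad I, from 8 UMIs, and 37.9 CPM in epigonadal Ad I, from 10 UMIs, with a log2 ratio of 2.03 (0.47 to 3.51). Ndufs1 was at 115 and 41.7 CPM there, from 6 and 11 UMIs, at 1.51 (−0.26 to 3.02). In Ad IIa Ndufs3 stood at 49.8 and 66.3 CPM, at −0.39 (−1.20 to 0.31), so the upper end of complex I in Ad I rests on few UMIs. At its lower end in Ad I, Ndufv3 had 0 thymic against 24 epigonadal UMIs and Ndufb2, a membrane-arm accessory subunit, 0 against 13. The upper limits of their log2 ratios were −0.25 and 0.73, so the interval of Ndufb2 includes 0.

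Complex II, succinate dehydrogenase, also acts in the citric acid cycle and stands apart in having no mitochondrially encoded part. Over all labelled nuclei Sdha, the succinate-oxidising flavoprotein, was at 112 CPM in thymic and 213 CPM in epigonadal nuclei, at −0.91 (−1.34 to −0.53). The iron-sulfur subunit Sdhb was at 37.4 and 146 CPM, at −1.93 (−2.70 to −1.31). The membrane anchors gave −0.93 (−1.62 to −0.35) for Sdhc, at 46.7 and 90.8 CPM, and −0.92 (−2.03 to −0.06) for Sdhd, at 20.6 and 40.3 CPM. All 4 genes were lower in the thymic library, but 3 of them by less than 2-fold. With ribosomal UMIs as the total every ratio of this comparison moved up by 0.91. The interval of the complex II sum, −1.46 to −0.90 before this move, then spanned 0.

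In Ad I the order of the libraries was turned for complex II. Its sum was 440 CPM (279 to 661) in thymic Ad I and 231 CPM (177 to 297) in epigonadal Ad I, a log2 ratio of 0.95 (0.17 to 1.64), or 0.61 (−0.17 to 1.30) with TMM factors. Sdha was at 249 against 117 CPM, from 13 and 31 UMIs, at 1.11 (0.02 to 2.06). Sdhc was at 95.7 against 30.3 CPM, from 5 and 8 UMIs, at 1.71 (−0.30 to 3.45), while Sdhb had 2 and 17 UMIs, at −0.47 (−3.91 to 1.32). Sdhd had 3 and 5 UMIs, under the minimum. At the nuclear-encoded total no other complex was higher in thymic Ad I: complex I was at −0.15 (−0.47 to 0.15), complex III at −0.65 (−1.37 to −0.05), complex IV at −0.35 (−0.77 to 0.04) and complex V at −0.70 (−1.14 to −0.31). With ribosomal UMIs as the total every ratio in Ad I moved up by 0.53, which put complexes I and IV above 0 too.

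Complex III, the cytochrome bc1 complex, hands electrons from ubiquinol to cytochrome c. All 8 of its genes were at least 2-fold lower in labelled thymic than epigonadal nuclei, with ratios from −2.29 to −1.33. The hinge protein gene Uqcrh was at 108, 163, 112, 111 and 240 CPM in the thymic labels, in the order above, and at 104, 125, 220, 107 and 732 CPM in epigonadal ones. The values of the libraries were near each other in Ad Ia and Ad IIb and apart in Ad IIa and Ad IIc. The thymic values of Ad Ia and Ad IIb rest on 3 UMIs each, too few to show likeness. Uqcrc2, a core protein of the complex, had 0 UMIs in thymic Ad IIc against 167 in epigonadal Ad IIc, and 26 in thymic Ad IIa.

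Complex IV, cytochrome c oxidase, reduces oxygen. Of its 16 genes 11 had at least 10 UMIs in labelled nuclei, and 10 of them were at least 2-fold lower in the thymic library. Cox8a, a small membrane subunit (ENSMUSG00000035885, chr19:7215158-7217616), was at 72.3, 122, 87.2, 37 and 240 CPM in the thymic labels and at 223, 258, 399, 227 and 1835 CPM in the epigonadal labels. Every epigonadal value lay above the thymic one of its label, but the thymic values of Ad Ia, Ad Ib and Ad IIb rest on 2, 3 and 1 UMIs. Over all labelled nuclei the UMIs were 54 and 1535, and the log2 ratio was −2.80 (−3.24 to −2.43). Cox7a2l was the least lowered, at 82.2 and 122 CPM, or −0.55 (−1.06 to −0.10).

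Several complex IV subunits have a general form and a form tied to a tissue or to low oxygen. Each general form had more UMIs than its partner in both libraries. Cox4i1 had 101 thymic and 1308 epigonadal UMIs, at −1.68 (−1.99 to −1.39), and its hypoxia-linked partner Cox4i2 had 0 and 3. Cox6a1 had 55 and 756, at −1.76 (−2.19 to −1.37), and the muscle form Cox6a2 had 0 and 1. Cox6b1 had 63 and 821, at −1.68 (−2.09 to −1.32), and the testis form Cox6b2 had 0 and 6. Cox7a2 had 55 and 610, at −1.45 (−1.88 to −1.06). Cox7b2 had 0 and 1 UMIs and Cox8c 0 and 0. Ndufa4 had 76 and 984, at −1.67 (−2.04 to −1.34), and its hypoxia-induced relative Ndufa4l2 had 0 and 6. The 2 forms left out by the rule, Cox7a1 and Cox8b, had 9 and 11, and 31 and 91 UMIs. Cox7a2 had 55 and 610 beside them, and Cox8a 54 and 1535. Per nuclear-encoded UMI, Cox7a1 and Cox8b were higher in labelled thymic than epigonadal nuclei, unlike Cox7a2 and Cox8a. Cox7a1 was at 16.8 CPM (7.69 to 31.9) thymic and 5.098 CPM (2.54 to 9.12) epigonadal. Cox8b was at 57.9 CPM (39.4 to 82.3) thymic and 42.2 CPM (34 to 51.8) epigonadal. The counting intervals of the libraries overlapped for both genes.

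In complex V all 17 genes had ratios below 0 over labelled nuclei, and 16 were at least 2-fold lower in the thymic library. Atp5g1, Atp5g2 and Atp5g3 encode the same mature c subunit, which builds the rotating ring. Atp5g3 (ENSMUSG00000018770, chr2:73908447-73912464) was at 0, 81.4, 42.3, 37 and 203 CPM in the thymic and 90.5, 166, 247, 135 and 1027 CPM in the epigonadal labels. The thymic value was the lower one in each, but those of Ad Ia, Ad Ib and Ad IIb rest on 0, 2 and 1 UMIs. Their upper limits of 133, 294 and 206 CPM lie above the epigonadal values, so a lower level is not shown in those labels. The log2 ratio of Atp5g3 was −2.80 (−3.39 to −2.31), from 31 and 887 UMIs. The ratio was −1.62 (−2.20 to −1.13) for Atp5g2 and −2.30 (−3.73 to −1.31) for Atp5g1, from 33 and 416, and 7 and 148 UMIs. Within Ad IIc the lowest ratios included Atp5c1, the gene of the rotor's gamma subunit, with 1 UMI in thymic and 298 in epigonadal barcodes, and Atp5g1, with 0 and 78. In Ad I, Atp5md, a small membrane subunit, had 0 thymic and 18 epigonadal UMIs, with an upper limit of the log2 ratio of 0.20, so its interval includes 0. Atpif1, the inhibitor that blocks ATP hydrolysis by complex V and is outside the rule, was at 28 CPM in thymic and 38 CPM in epigonadal labelled nuclei, from 15 and 82 UMIs.

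**Figure D2:**
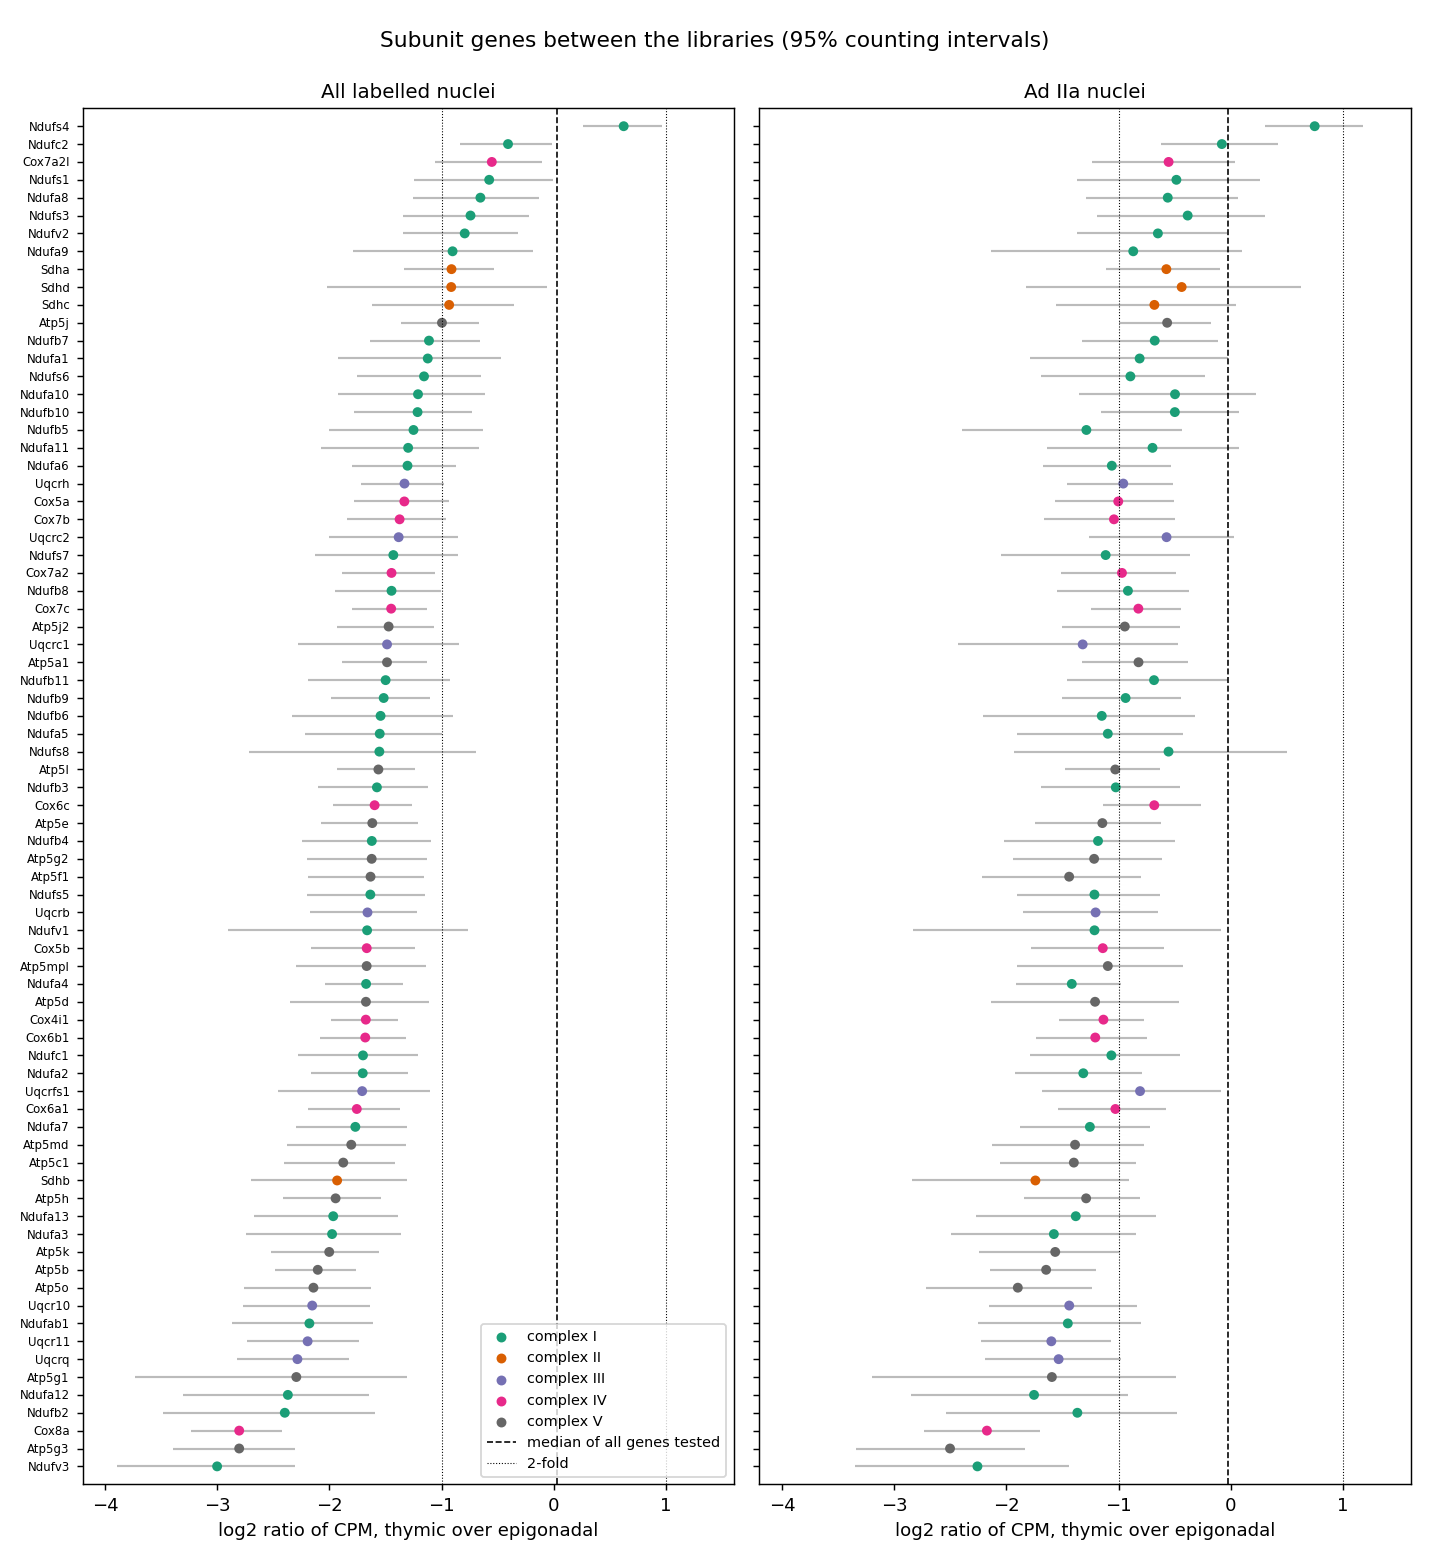
Log2 ratio of CPM, thymic over epigonadal, of 76 of the 77 subunit genes with at least 10 UMIs over all labelled nuclei (left) and in Ad IIa (right), coloured by complex, with 95% counting intervals. At the nuclear-encoded total, unlike the ribosomal one, Ndufs4 is the only gene above 0 on either side (0.62 and 0.75), and the other genes reach down to −3.00 and −2.50.

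The transcripts of the mitochondrial genome had the opposite order of libraries. Mitochondrially encoded subunit RNA is not expected inside nuclei and is set against the same nuclear-encoded total here. The 13 genes summed to 152503 CPM in thymic and 55109 CPM in epigonadal labelled nuclei, a log2 ratio of 1.47, and 12 of the 13 were at least 2-fold higher in the thymic library. The exception was mt-Co1, a core subunit of complex IV, at 0.996 (0.95 to 1.04). The highest was mt-Nd6, a complex I subunit, at 1.99 (1.72 to 2.27). The sums' log2 ratio was 1.54 in Ad I, 1.51 in Ad IIa and 1.34 in Ad IIc, so it varied little between labels while that of the nuclear-encoded subunits ran from −0.32 to −2.03. Labelled thymic nuclei held 27.5 mitochondrially encoded subunit UMIs for each nuclear-encoded one, and epigonadal nuclei 3.25.

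The mitochondrial share of UMIs and the nuclear-encoded subunits moved together within epigonadal Ad I and Ad IIa, and over part of the bins in epigonadal Ad IIb and Ad IIc. In epigonadal Ad IIa the 83 genes were at 8184 CPM in nuclei with under 2% mitochondrial UMIs, 10448 CPM at 2 to 5%, 12585 CPM at 5 to 10% and 14533 CPM above. Cytosolic ribosomal proteins rose over the same bins, from 27189 to 46648 CPM. In epigonadal Ad I the 83 genes rose from 3951 to 10612 CPM. They were level in the first 2 bins of epigonadal Ad IIc, at 35824 and 35621 CPM, then rose to 40186 CPM at 5 to 10% and 45978 CPM above. In epigonadal Ad IIb they rose from 5479 CPM under 2% to 8514 CPM at 5 to 10%, and fell to 5634 CPM in the last bin, which held 2 nuclei. In thymic Ad IIa the 83 genes were at 4784 CPM (4384 to 5210) in the 50 nuclei at 5 to 10% and 5349 CPM (5085 to 5624) in the 179 nuclei above. The epigonadal level was therefore the higher one in each bin that both libraries filled. Pooled over labelled nuclei, the mitochondrial share was 13.2% thymic and 5.22% epigonadal, and its part in the ratios was not tested.

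Other lists of the pathway were counted in the same comparison of all labelled nuclei, where 20.2% of all genes were at least 2-fold lower and 8.12% higher. Of 45 tested assembly factors, which build the complexes, 14 were at least 2-fold lower in the thymic library and 1 higher, with a summed log2 ratio of −0.50 (−0.63 to −0.37). Of 13 electron carriers and ubiquinone synthesis genes, 7 were lower and 0 higher, at −1.09 (−1.27 to −0.93). The complex III carrier subunit Cyc1 was at −1.95 (−2.98 to −1.17). Of 78 mitochondrial ribosomal proteins, 48 were lower and 0 higher, at −1.17 (−1.28 to −1.06). Of 82 cytosolic ribosomal proteins, 33 were lower and 0 higher, at −0.91 (−0.94 to −0.88). Ribosomal protein genes thus had lower thymic levels too. Set against 100 cytosolic ribosomal UMIs, subunit UMIs numbered 36 in thymic and 31.3 in epigonadal Ad I, 22.9 and 29.5 in Ad IIa, and 18.9 and 46.3 in Ad IIc. With these ribosomal UMIs as the total, 8 of 77 members were above 0 over all labelled nuclei, and the direction of the sum was turned in Ad I, at 0.21, and kept in Ad IIa, at −0.37, and Ad IIc, at −1.29.

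Regulators of these genes summed to 791 CPM in thymic and 479 CPM in epigonadal labelled nuclei, a log2 ratio of 0.72 (0.56 to 0.89), with a median gene at 0.05. Of 13 tested, 3 (Ppargc1b, Esrrg and Gabpa) were at least 2-fold higher in the thymic library and 1 was lower, against 8.12% and 20.2% of all genes. Ppargc1b, a coactivator of mitochondrial gene programs, had 66 thymic and 53 epigonadal UMIs, at 2.33 (1.78 to 2.88). Of these, 55 and 38 lay in Ad I, where it was at 1053 and 144 CPM. Esrrg, a nuclear receptor of oxidative metabolism, had 29 and 14 UMIs in Ad I, at 3.36 (2.42 to 4.42). Gabpa, the DNA-binding part of the factor GABP, was at 1.25 (0.59 to 1.88) over all labelled nuclei. The lower one was Tfam, the packaging factor of mitochondrial DNA, at −1.23 (−3.32 to 0.08) from 4 and 42 UMIs. In Ad I the regulators summed to 2240 CPM thymic and 656 CPM epigonadal. Of 6 tested there, 3 were at least 2-fold higher and 0 lower, against 15.2% and 17% of all genes. Ppargc1b and Esrrg gave 1053 and 555 CPM of the thymic sum, whereas Nrf1 was at 172 CPM thymic and 205 CPM epigonadal. The summed subunits were 1.25-fold lower in thymic Ad I, a direction that was turned with ribosomal UMIs as the total.

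**Figure D3:**
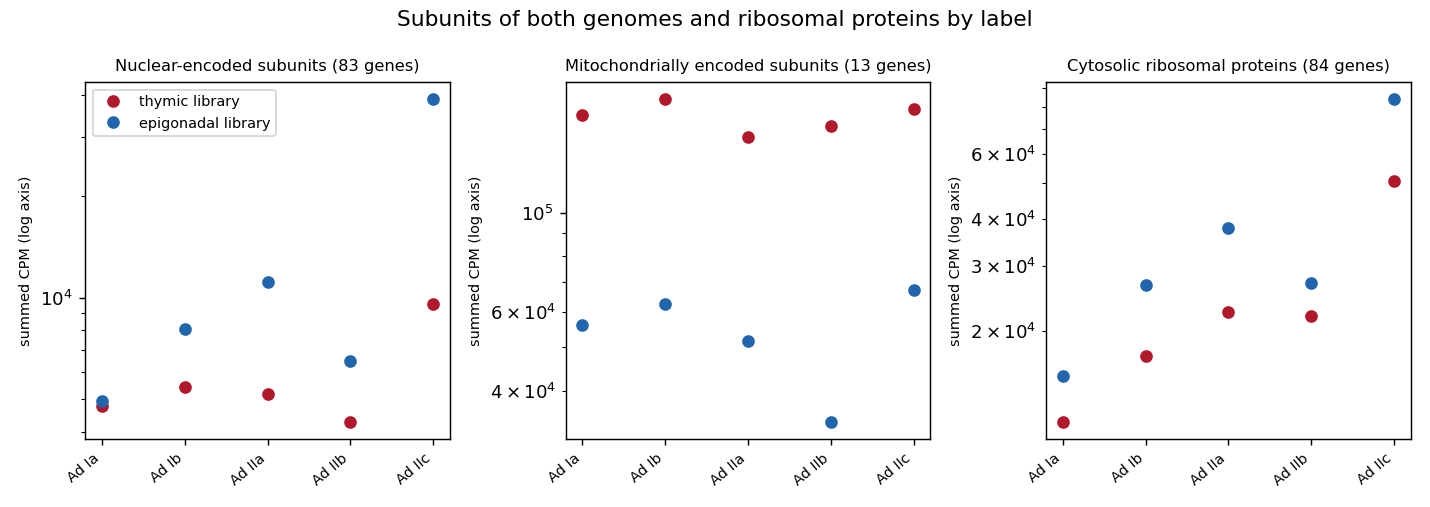
Summed CPM (log axis) by label of the nuclear-encoded subunits, the mitochondrially encoded subunits and the cytosolic ribosomal proteins; points are the thymic and epigonadal libraries. The thymic points lie below the epigonadal ones for the nuclear-encoded subunits and ribosomal proteins, and above them for the mitochondrially encoded subunits (152503 against 55109 CPM over all labelled nuclei).

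Within each library the labels were compared with Ad I. The labels are the authors' and may have been made from these same counts, so ratios between them describe the annotation. The epigonadal subunits were higher in Ad IIa than in Ad I by a log2 ratio of 0.81 (0.74 to 0.89), with 27 of 77 members at least 2-fold higher and 0 lower, against 19.8% and 17.5% of all genes. The thymic sums of Ad IIa and Ad I were level, at 0.02 (−0.16 to 0.22), with 12 of 74 members higher and 9 lower, against 28.2% and 20.2% of all genes. The median of all genes was 0.07 in the epigonadal and 0.08 in the thymic comparison. The difference between the libraries was not tested. With cytosolic ribosomal UMIs as the total, the epigonadal ratio was −0.08 with 0 members higher and 1 lower, and the thymic one −0.66 with 5 higher and 26 lower. With TMM factors the epigonadal and thymic ratios were 0.96 and 0.43. The accessory complex I subunits Ndufa7, Ndufb5 and Ndufa9 led in epigonadal Ad IIa, at 1.83 (1.07 to 2.81), 1.75 (0.60 to 3.53) and 1.70 (0.29 to 4.24). Ndufs4 was lowest there at −0.23 (−0.79 to 0.39), and the ATP synthase alpha subunit gene Atp5a1 was also low at 0.10 (−0.33 to 0.58).

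In thymic Ad IIa over Ad I the leading members were Ndufb10, with 29 UMIs against 0, Atp5md, with 22 against 0, and Atp5j, which encodes coupling factor 6, with 62 against 1 and a log2 ratio of 2.44 (0.48 to 8.34). The intervals of Ndufb10 and Atp5md had lower limits of −0.06 and −0.49, so both include 0. The lowest were Ndufs3 at −1.67 (−2.87 to −0.23), Sdhd at −1.66 (−3.59 to 1.02) and Ndufs1 at −1.51 (−2.85 to 0.19). Complex II as a sum was lower in thymic Ad IIa than in Ad I, at −1.22 (−1.89 to −0.46), and higher in epigonadal Ad IIa, at 0.58 (0.20 to 0.996), though with ribosomal UMIs as the total the epigonadal value was −0.32 (−0.70 to 0.10).

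Ad IIc held the highest subunit levels in both libraries. In the epigonadal library 76 of 77 members had their highest level in Ad IIc, the exception being Ndufs4, and 53 had their lowest level in Ad Ia. In the thymic library 47 of 75 members were highest in Ad IIc, 11 in Ad Ia and 10 in Ad Ib. Thymic Ad Ia was also the lowest label for 29 members, Ad IIb for 20 and Ad Ib for 19. With 132 member UMIs in thymic Ad Ia and 133 in Ad Ib, few UMIs set these places. Such an order was not computed for all genes in either library, so these counts do not set the members apart. Epigonadal Ad IIc exceeded Ad I by 2.62 (2.55 to 2.69), with 76 of 77 members at least 2-fold higher and 0 lower, against 24.3% and 37.5% of all genes. The largest ratios were those of the small complex V subunits Atp5e, at 3.61 (2.92 to 4.51), and Atp5d, at 3.58 (2.65 to 4.89), and of Ndufb4, at 3.58 (2.70 to 4.80). Ndufs4 was lowest at 0.17 (−0.44 to 0.83), then Cox7a2l at 1.38 (0.71 to 2.18). Thymic Ad IIc exceeded Ad I by 0.91 (0.70 to 1.13), with 21 of 38 members higher and 1 lower, against 29.6% and 25.9% of all genes. There Atp5j and Cox7a2 had 13 UMIs against 1 and Ndufb8 had 11 against 1, and the member at least 2-fold lower was Sdha, with 5 against 13, at −1.35 (−3.27 to 0.15). The median of all genes was −0.40 in the epigonadal and −0.05 in the thymic comparison. With cytosolic ribosomal UMIs as the total, the epigonadal ratio was 0.57 with 13 members higher and 1 lower, and the thymic one −0.93 with 3 higher and 16 lower.

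Other features moved with Ad IIc. Cytosolic ribosomal proteins were at 84338 CPM in epigonadal Ad IIc and 20345 CPM in Ad I, and at 50476 and 14089 CPM in the thymic library. The nuclear RNAs Malat1, Neat1 and Meg3 summed to 1829 CPM in epigonadal Ad IIc and 42411 CPM in Ad I. In thymic Ad IIc they summed to 14503 CPM, against 59455 CPM in Ad I. All 4 erythroid haemoglobin markers were found in thymic Ad IIc, at a summed 25892 CPM against 498 CPM in thymic Ad I, and at 393 CPM in epigonadal Ad IIc. Their part in the subunit levels was not tested.

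Labelled nuclei were set beside the barcodes of their library that carried no label, which held other cells too. Erythroid markers summed to 6311 CPM in thymic unlabelled against 3073 CPM in labelled barcodes, and to 9534 against 248 CPM in the epigonadal library. Adipocyte markers were at 5340 against 12606 CPM thymic and 26878 against 32643 CPM epigonadal, and endothelial markers at 1001 against 7804 and 1881 against 4383 CPM. T cell markers were at 1746 CPM in thymic and fibroblast markers at 1267 CPM in epigonadal unlabelled barcodes. The part of this makeup in the ratios was not tested. Thymic unlabelled barcodes held 7554 CPM (7474 to 7633) of the subunits, above the 5555 CPM of labelled nuclei, a log2 ratio of labelled over unlabelled of −0.44 (−0.50 to −0.39). Of 77 members 1, Ndufv3 at −1.20 (−2.10 to −0.50), was at least 2-fold lower in labelled nuclei and 0 were higher, against 23.8% and 16.6% of all genes. These counts depended on the total: 8 were higher and 0 lower with all UMIs, and 10 and 0 with ribosomal UMIs. Without ribosomal protein genes and 3 abundant RNAs 0 were higher and 14 lower. At the nuclear-encoded total the other low members were Ndufa12 at −0.98 (−1.92 to −0.25) and Atp5g2 at −0.97 (−1.55 to −0.49), and the highest were Atp5j at 0.77 (0.40 to 1.11), Ndufc2 at 0.49 (0.07 to 0.87) and Ndufs3 at 0.32 (−0.28 to 0.84). Epigonadal unlabelled barcodes held 15841 CPM (15715 to 15969), and the labelled to unlabelled ratio was 0.10 (0.08 to 0.12), with 0 of 79 members at least 2-fold away in either direction, against 5.08% higher and 14.9% lower of all genes. Ndufa4l2, Ndufa7 and Ndufc2 were highest there, at 0.60 (−1.26 to 2.38), 0.31 (0.15 to 0.47) and 0.29 (0.09 to 0.50). Cox4i2, Atp5g1 and Ndufv1 were lowest, at −0.29 (−3.00 to 1.72), −0.26 (−0.56 to 0.02) and −0.18 (−0.51 to 0.13).

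These ratios pool labels that lay on both sides of the unlabelled barcodes. Ad IIc was above them in both libraries, at 9565 CPM thymic and 39074 CPM epigonadal, and Ad I was below them, at 5073 and 6360 CPM. With all UMIs as the total the thymic ratio of all labelled nuclei was 0.39, and among barcodes of at least 1000 UMIs it was 0.35, so its direction depended on the setting. Thymic unlabelled barcodes had a median of 308 UMIs and a median mitochondrial share of 69.25%, and 51.2% of their pooled UMIs were mitochondrial. Of them 18358 lay under 500 UMIs, at 11262 CPM, where no epigonadal barcode did. How much RNA from outside the nuclei enters the subunit counts was not tested.

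Gene length was set beside the library ratio. The median length of the 83 genes was 7279 bases, and 11 spanned 20 kb or more, Ndufs4 being 100300 bases long. Across 77 genes the rank correlation of length and log2 ratio, thymic over epigonadal in labelled nuclei, was 0.38. This is a description across genes that share libraries, not a test. The 10 tested genes of 20 kb or more had a median ratio of −0.92 and the 67 shorter ones −1.62. In Ad I the medians were 1.11 for 9 long and −0.51 for 62 shorter genes, with a rank correlation of 0.25. In Ad IIa they were −0.61 and −1.14, with a correlation of 0.23. In Ad IIc the long genes had the lower median, −2.20 against −1.89, while the rank correlation was 0.26. The sources used here do not say how introns were counted, and its part was not tested.

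**Figure D4:**
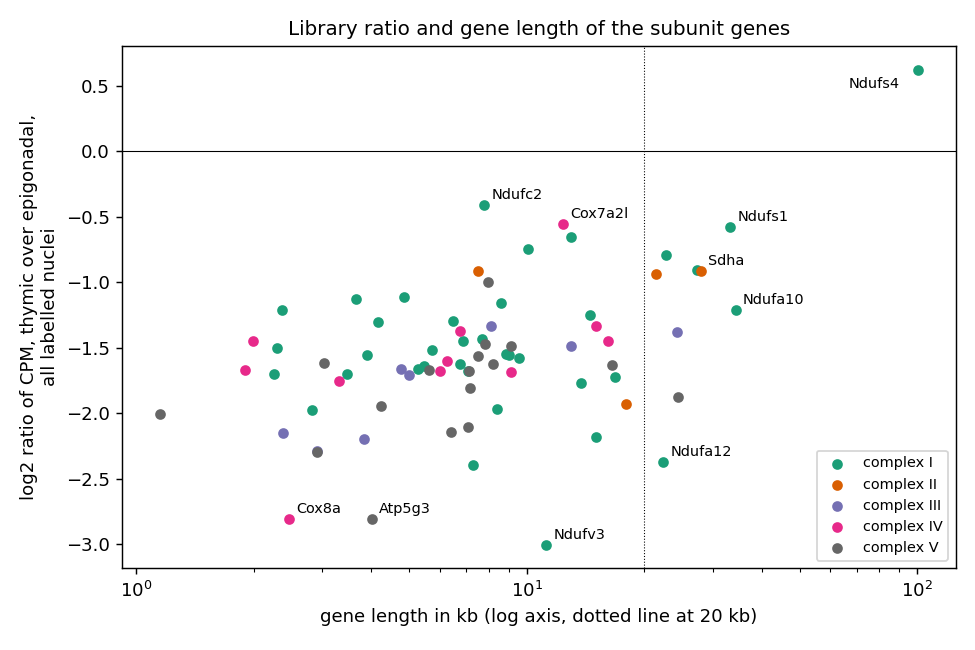
Log2 ratio of CPM, thymic over epigonadal in all labelled nuclei, against gene length in kb (log axis) for 77 subunit genes, coloured by complex. Genes of 20 kb or more, right of the dotted line, have a median of −0.92 and the shorter ones −1.62, and Ndufs4 (100300 bases) is the only point above 0 at this scaling, though not with ribosomal protein UMIs as the total.

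Chromatin over the subunit genes was compared in 317 labelled nuclei of the 6-month female library, with 4393359 fragments. The labels were thyAD I (146 nuclei), thyAD II (140) and Immune (31). They may have been made from the same fragments, so ratios between them describe the annotation. Fragments over gene bodies widened by 2 kb at both ends summed to 2855 (2774 to 2938) fragments per 1000000 in thyAD I, 2862 (2792 to 2934) in thyAD II and 2851 (2713 to 2994) in Immune nuclei. The log2 ratio of thyAD II over thyAD I was 0.0035 (−0.051 to 0.058). Of 81 tested members 0 were at least 2-fold higher and 0 lower, against 4.46% and 2.99% of all genes. The members ran from Atp5g3, with 78 and 108 fragments, at −0.88, to Atp5mpl, a small complex V subunit, with 49 and 22, at 0.73. Ndufs4, set apart in the RNA by its thymic over epigonadal ratio, was at −0.10, from 83 fragments (thyAD II) and 67 (thyAD I). The chromatin library held thymic nuclei only, so this value is no counterpart of that RNA ratio.

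The sum in Immune nuclei differed from that in thyAD I by less than its counting interval, at −0.0018 (−0.085 to 0.080). Of 82 members 2 were at least 2-fold higher, Cox6a2 with 7 against 3 fragments and Ndufa9 with 19 against 23, and 2 were lower, Ndufs5 with 7 against 58 and Atp5j2 with 4 against 34. The shares of all genes were 9.5% and 9.48%. Per-gene values in the 31 Immune nuclei rest on few fragments.

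**Figure D5:**
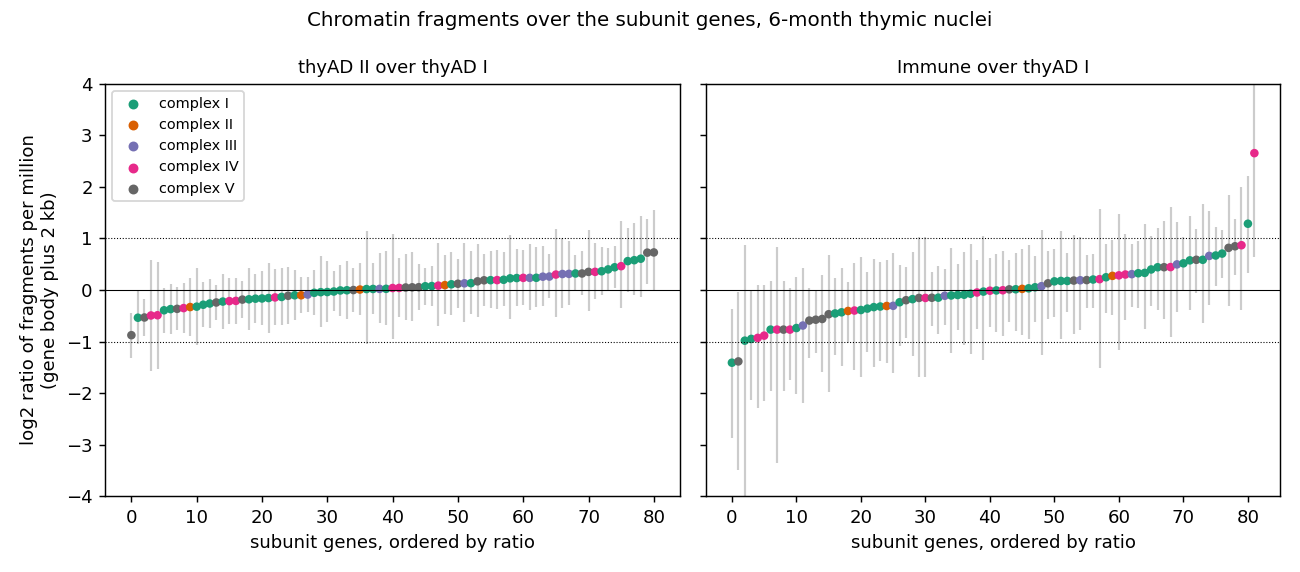
Log2 ratio of fragments per 1000000 over gene body plus 2 kb for each subunit gene, ordered by ratio, thyAD II over thyAD I (left) and Immune over thyAD I (right), with 95% counting intervals and dotted lines at 2-fold. All 81 genes on the left lie within 2-fold, and 4 of 82 on the right lie outside it.

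Most gene starts of the members held fragments. RefSeq promoter sequences (GRCm38.p6) matched 67 of the 83 members, and fragments were counted in the window from 250 bases before to 50 after the start. In thyAD I, 66 of the 67 windows held a fragment, against 52.3% of 27025 promoters, with a median of 16.4 fragments per 1000000 against 0.608. Between thyAD II and thyAD I the summed ratio at starts was −0.04 (−0.12 to 0.05), with 1 of 66 members higher (Ndufa13, 12 against 1 fragment) and 1 lower (Cox6b2, 3 against 8), against 3.74% and 2.26% of all promoters. Between Immune nuclei and thyAD I it was 0.07 (−0.06 to 0.19), with 4 of 62 members at least 2-fold higher and 4 lower, against 6.19% and 9.99% of all promoters.

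Promoters of these genes are known to hold sites of NRF-1, of ETS factors such as GABP, and of YY1. The 250 bases before each start were searched on both strands for the NRF-1 palindrome (the letters in capitals in the first 4 sequences), CCGGAAGT (ETS) and AAGATGGC (YY1), none of which overlapped another. The NRF-1 letters were found in 4 of 67 members (5.97%) and in 0.777% of all promoters. The ETS letters were found in 3 members (4.48%) and in 2.92% of all promoters, and those of YY1 in 0 members and 1.58%. With the 50 bases after the start included, the YY1 letters were in 9 members (13.4%) and 2.87% of all promoters. In that wider window the ETS letters were in 5 members (7.46%) and 3.99% of all promoters, and the NRF-1 letters in 5 (7.46%) and 0.981%. The median GC content was 56.4% in member promoters and 52% in all. A match describes the letters and is not a measured site. The promoters with an NRF-1 match (Atp5g2, Atp5k, Cox6a1 and Ndufa11) or an ETS match (Atp5h, Uqcr11 and Uqcrh) are printed with the match in capitals, and that of Ndufs4, without a match, is added because its RNA ratio stood apart. Sequences run 5′ to 3′ on the strand of the gene.
Atp5g2 (chr15:102671048-102671297, reverse strand): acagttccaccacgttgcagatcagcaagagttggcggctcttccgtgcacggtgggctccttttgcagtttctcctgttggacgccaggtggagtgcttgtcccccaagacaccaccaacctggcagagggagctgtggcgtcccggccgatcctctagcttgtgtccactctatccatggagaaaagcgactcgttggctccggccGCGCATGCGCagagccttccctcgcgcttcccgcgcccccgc
Atp5k (chr5:108434400-108434649, reverse strand): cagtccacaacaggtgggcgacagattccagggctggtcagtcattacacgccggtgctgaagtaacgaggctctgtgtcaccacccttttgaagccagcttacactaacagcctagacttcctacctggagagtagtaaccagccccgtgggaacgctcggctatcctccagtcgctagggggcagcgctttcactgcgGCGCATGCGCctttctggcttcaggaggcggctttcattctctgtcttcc
Cox6a1 (chr5:115348959-115349208, reverse strand): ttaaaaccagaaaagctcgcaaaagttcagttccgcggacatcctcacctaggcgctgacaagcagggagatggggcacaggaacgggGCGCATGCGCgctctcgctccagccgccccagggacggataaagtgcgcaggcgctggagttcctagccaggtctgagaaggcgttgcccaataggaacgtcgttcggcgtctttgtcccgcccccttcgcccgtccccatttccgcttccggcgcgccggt
Ndufa11 (chr17:56717512-56717761, forward strand): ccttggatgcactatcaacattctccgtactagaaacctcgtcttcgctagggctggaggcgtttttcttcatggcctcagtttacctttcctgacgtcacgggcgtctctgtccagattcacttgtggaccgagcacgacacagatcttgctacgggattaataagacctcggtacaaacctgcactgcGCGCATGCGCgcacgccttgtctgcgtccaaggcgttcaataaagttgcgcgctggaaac
Atp5h (chr11:115419920-115420169, reverse strand): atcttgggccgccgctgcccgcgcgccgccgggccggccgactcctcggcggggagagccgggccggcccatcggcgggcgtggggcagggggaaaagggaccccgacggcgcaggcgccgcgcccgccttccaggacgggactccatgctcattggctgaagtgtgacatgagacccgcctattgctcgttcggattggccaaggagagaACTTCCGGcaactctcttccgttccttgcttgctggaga
Uqcr11 (chr10:80406822-80407071, reverse strand): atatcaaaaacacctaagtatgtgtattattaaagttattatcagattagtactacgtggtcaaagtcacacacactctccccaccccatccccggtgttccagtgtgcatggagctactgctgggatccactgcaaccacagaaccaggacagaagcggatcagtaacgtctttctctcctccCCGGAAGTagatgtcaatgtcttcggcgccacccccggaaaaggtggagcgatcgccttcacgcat
Uqcrh (chr4:116075071-116075320, reverse strand): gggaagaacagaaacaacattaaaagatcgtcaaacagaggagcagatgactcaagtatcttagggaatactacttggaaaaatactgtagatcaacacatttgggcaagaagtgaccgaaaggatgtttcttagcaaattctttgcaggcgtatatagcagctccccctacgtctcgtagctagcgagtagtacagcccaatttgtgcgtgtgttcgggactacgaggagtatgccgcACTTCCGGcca
Ndufs4 (chr13:114388095-114388344, reverse strand): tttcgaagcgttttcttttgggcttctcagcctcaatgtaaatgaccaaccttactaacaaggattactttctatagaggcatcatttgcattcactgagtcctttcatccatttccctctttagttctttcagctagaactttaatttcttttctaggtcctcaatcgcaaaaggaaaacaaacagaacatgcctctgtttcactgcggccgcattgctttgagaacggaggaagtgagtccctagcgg

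At these windows Atp5g2 had 49, 52 and 12 fragments in thyAD I, thyAD II and Immune nuclei, Atp5k 21, 27 and 6, Cox6a1 36, 45 and 11, and Ndufa11 16, 35 and 13. Atp5h had 48, 49 and 20, Uqcr11 18, 24 and 5, and Uqcrh 31, 35 and 14. The Ndufs4 window had 9, 9 and 0. The 7 genes with a match had fragments in every label. In the RNA of all labelled 4-month nuclei, thymic over epigonadal, the genes with an NRF-1 match were at −1.62 (Atp5g2), −2.002 (Atp5k), −1.76 (Cox6a1) and −1.30 (Ndufa11). Those with an ETS match were at −1.95 (Atp5h), −2.19 (Uqcr11) and −1.33 (Uqcrh), and the member median was −1.60.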

How the data were processed

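Per the file headers, cellranger 7.2.0 wrote the deposited RNA matrices, whose values are raw counts of UMIs. The submitters' processing notes name mm10, Cell Ranger ARC 2.0.2 and Seurat 5.1.0 without their roles. The sources used here do not give how introns, strands and reads shared with pseudogene copies were counted, so genes with such copies are uncertain. The authors also deposited a label, UMI counts and the percent of mitochondrial UMIs per nucleus. Chromatin fragments came from cellranger-arc 2.0.2 with a GRCm38 reference, per the file headers. The deposited table of 6-month nuclei used here ends inside row 318, so 317 complete rows were used.

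For each label of a library, UMIs were added over barcodes and divided by their nuclear-encoded total. Library totals were 10054839 thymic and 6504841 epigonadal UMIs. Log2 ratios of single genes and of sums had 0.5 UMI added to each side, and those of single genes were kept at 10 or more UMIs over both sides. Sums have exact Poisson intervals and ratios the exact binomial split. A gene counted as higher or lower at 2-fold. Gene positions and promoters came from RefSeq (GRCm38.p6) by symbol or synonym, for 83 and 67 of 83 members.

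The members, gene lists and alternatives were chosen with earlier results of these data known. Named genes were the 3 highest and 3 lowest members of each comparison of RNA, the paralog pairs, the Sdh genes and Atpif1, except that 1 member is not reported here singly. Other genes named, such as single regulators, carriers and those at the ends of the chromatin ratios, were chosen after their values were seen, as were the genes given by label beside the leading ones. The lists were mitochondrially encoded subunits, assembly factors, electron carriers, regulators, cytosolic and mitochondrial ribosomal proteins, nuclear RNAs and cell-type markers. Doublets were left as the authors treated them. Alternatives were TMM and median-of-ratios scaling, other totals, barcode subsets by UMIs and mitochondrial percent, equal weight per barcode, a minimum of 50 UMIs, the median member, and other fragment windows. Code was tested on simulated data. Python 3.11.15, numpy 2.4.6, pandas 2.3.3, scipy 1.17.1, matplotlib 3.10.9, R 4.3.3 and edgeR 4.0.16 (for TMM factors only) were used.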

Additional observations from a re-analysis of the deposited data

Results flagged for a closer look

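Complex II changed in opposite directions between labels in the 2 libraries, and this difference was not tested. From Ad I to Ad IIa its summed log2 ratio was −1.22 (−1.89 to −0.46) thymic and 0.575 (0.20 to 0.996) epigonadal. From Ad I to Ad IIc it was −1.09 (−2.30 to −0.02) and 2.15 (1.77 to 2.57). The thymic Ad I sum rests on 23 UMIs, 13 of them from Sdha, the flavoprotein that oxidises succinate. With cytosolic ribosomal protein UMIs as the total the epigonadal values were −0.32 (−0.70 to 0.10) for Ad IIa and 0.10 (−0.28 to 0.51) for Ad IIc, both with intervals that span 0.

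All 5 complexes lay below the unlabelled barcodes in the thymic library and slightly above them in the epigonadal library, which was likewise not tested. The libraries differ in depth range: 18358 thymic unlabelled barcodes lay under 500 UMIs, at 11262 CPM over all members, and no epigonadal barcode did. Thymic unlabelled barcodes were at 5767 CPM from 500 to 1000 UMIs, 4135 CPM from 1000 to 2000 and 4775 CPM above, beside 5555 CPM in labelled nuclei. The labelled to unlabelled log2 ratios, thymic then epigonadal, were −0.276 and 0.104 for complex I and −0.437 and 0.115 for complex II. They were −0.676 and 0.133 for complex III, −0.54 and 0.0894 for complex IV, and −0.502 and 0.0804 for complex V. Over all members they were −0.443 and 0.0974. With all UMIs as the total the thymic ratios were above 0 for every complex, from 0.16 for complex III to 0.56 for complex I.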

How the results depend on the processing

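The values are summed log2 ratios unless a count of members is named, and in the comparisons named by a label alone they are thymic over epigonadal. Of 177 summary values under alternatives, 99 stayed within the counting interval or within 1.5 times the count, 70 moved and 8 changed direction. Of 898 values of single members, 750, 140 and 8 did. The cause of a change was not tested unless given. Shares of all genes called were not computed under the alternatives, so counts of members there do not set them apart from all genes. A scaling moves all genes together: the median of all genes moved by −0.99 to 0.60 with TMM, −0.93 to 0.65 with median-of-ratios, −0.15 to 0.83 with all UMIs, −0.24 to 0.11 without ribosomal and 3 abundant RNAs, and −2.05 to 0.92 with ribosomal UMIs as the total. With TMM the ratio was −1.76 over all labels, −0.66 in Ad I (29 members lower) and −3.01 in Ad IIc, 0.43 for thymic (19 members higher) and 0.96 for epigonadal Ad IIa over Ad I, 3.22 for epigonadal Ad IIc over Ad I, and −0.51 for thymic labelled over unlabelled. With median-of-ratios scaling it was −1.71 over all labels, −0.66 in Ad I (29 lower) and −2.96 in Ad IIc, 0.38 for thymic and 0.95 for epigonadal Ad IIa over Ad I, and 3.27 for epigonadal Ad IIc over Ad I. All UMIs as the total gave −1.74 over all labels, −1.24 in Ad IIa, −2.16 in Ad IIc, and for labelled over unlabelled 0.39 (turned) for thymic and 0.18 for epigonadal nuclei. Without ribosomal protein genes and 3 abundant RNAs the ratio was −1.69 over all labels, 2.72 for epigonadal Ad IIc over Ad I, and −0.69 and 0.038 for thymic and epigonadal labelled over unlabelled. Equal weight per barcode gave −1.98 over all labels, 0.65 and 2.48 for epigonadal Ad IIa and Ad IIc over Ad I, and −1.04 and 0.16 for labelled over unlabelled. Members with at least 50 UMIs gave −0.61 in Ad I.

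Barcodes with at least 1000 UMIs gave −1.25 over all labels, 7 members lower in Ad I, where 9 thymic nuclei remained, 0.23 for thymic and 1.07 for epigonadal Ad IIa over Ad I, 9 members higher for thymic and a ratio of 2.84 for epigonadal Ad IIc over Ad I, and 0.35 (turned) for thymic labelled over unlabelled. Under 5% mitochondrial UMIs, 4 labelled thymic nuclei with 26 member UMIs remained and none in Ad IIc, so no value was possible there. Thymic Ad I was then 1 nucleus with 1 member UMI, and thymic Ad IIa 2 nuclei with 11. Ratios that use these thymic nuclei, and counts of members lower or higher from them, rest on too few UMIs to be read. The ratios were −1.90 over all labels (31 members lower), −1.41 in Ad I (0 lower), −1.91 in Ad IIa (4 lower), 0.42 for thymic (0 higher) and 0.93 for epigonadal Ad IIa over Ad I, 2.75 for epigonadal Ad IIc over Ad I, and 0.043 (turned) and 0.71 for thymic and epigonadal labelled over unlabelled. The next settings were chosen after seeing the data. Barcodes at 5 to 10% mitochondrial UMIs gave −2.23 over all labels, −0.58 in Ad I (10 lower), −1.39 in Ad IIa, −2.51 in Ad IIc, 3 members higher for thymic and a ratio of 0.94 for epigonadal Ad IIa over Ad I, 0.68 (0 members higher) for thymic Ad IIc over Ad I, and 0.39 (turned) and 0.47 for thymic and epigonadal labelled over unlabelled, where thymic Ndufa12 was turned to 0.32. Ribosomal UMIs as the total gave −0.70 over all labels (17 lower), 0.21 (turned, 13 higher and 9 lower) in Ad I, −0.37 (5 lower) in Ad IIa and −1.29 in Ad IIc. For Ad IIa over Ad I this total gave −0.66 (5 higher, 26 lower) thymic and −0.083 (turned, 0 higher, 1 lower) epigonadal. For Ad IIc over Ad I it gave −0.93 (turned, 3 higher, 16 lower) thymic and 0.57 (13 higher, 1 lower) epigonadal. For labelled over unlabelled it gave 0.48 (turned, 10 higher) thymic and 0.31 epigonadal. Under this total Cox7a2l was turned to 0.36 and Ndufc2 to 0.50 over all labels, and Sdha to 0.17 in Ad IIa. Cox6b1 was turned to −0.18 and Ndufa4 to −0.20 in epigonadal Ad IIa over Ad I, and Cox7a2l to −0.67 and Sdha to −0.19 in epigonadal Ad IIc over Ad I. The summed chromatin ratios stayed within their counting intervals under all alternatives run.

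The limits are the number of libraries and depth: 1 library per group gives no spread between animals, thymic Ad I rests on 265 member UMIs and thymic Ad IIc on 519, and 300 of 365 labelled thymic but 133 of 1564 labelled epigonadal nuclei lie above 10% mitochondrial UMIs. No paired analysis was possible because each group has 1 library and no result comes from a test.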

Other observations

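Assembly factors and mitochondrial ribosomal proteins were followed across the labels of each library. In epigonadal Ad IIc over Ad I, 24.3% of all genes were at least 2-fold higher and 37.5% lower. There 67 of 78 mitochondrial ribosomal proteins were at least 2-fold higher and 1 lower, with a summed log2 ratio of 2.05 (1.91 to 2.20), and all 81 tested cytosolic ribosomal proteins were higher, at 2.05 (2.01 to 2.09). Assembly factors had 21 higher and 8 lower of 38, at 0.78 (0.61 to 0.97), and regulators 3 higher and 4 lower of 11, near the shares of all genes, at −0.94 (−1.25 to −0.62). The mitochondrially encoded subunits were at 0.18 (0.16 to 0.21) there, beside the 2.62 of the nuclear-encoded ones. In thymic Ad IIa over Ad I the sum of the regulators was at −1.88 (−2.20 to −1.55). Of 8 tested, 4 were at least 2-fold lower and 0 higher, against 20.2% and 28.2% of all genes. Ppargc1b was at 1053 CPM in Ad I and 22.4 CPM in Ad IIa, and Esrrg at 555 and 4.98 CPM. Nrf1 and Gabpa went the other way, at 172 and 262 CPM, and 38.3 and 59.8 CPM. The electron carriers were at −1.26 (−1.67 to −0.83), while the subunits were at 0.02. These values carry no test, and the labels share their Ad I nuclei within a library.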
